A study of Arabidopsis thaliana with 6 samples.

Results

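The 10 nuclear genes described here encode the small subunit of Rubisco, its activase and the enzymes that make its substrate, ribulose 1,5-bisphosphate. They were chosen by their gene identifiers, and all 10 are among the 32678 gene models of the table. Rubisco (ribulose bisphosphate carboxylase/oxygenase) joins CO2 to ribulose bisphosphate and yields 3-phosphoglycerate; its large subunit is encoded in the plastid genome and its small subunit by the nuclear RBCS genes. Phosphoribulokinase (PRK) forms ribulose bisphosphate with ATP from ribulose 5-phosphate, which transketolase, sedoheptulose bisphosphatase, ribose 5-phosphate isomerase and ribulose phosphate epimerase supply. In developing green seeds of Brassica napus, Rubisco is known to recapture CO2 released by plastid pyruvate dehydrogenase, without a full Calvin cycle, so that more of the sugar carbon reaches fatty acids. This route is called the Rubisco bypass, and its substrate comes from the non-oxidative pentose phosphate reactions and PRK.

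RNA was sequenced from Arabidopsis thaliana seeds that segregate in siliques of a chlorophyll synthase mutant. Chlorophyll synthase attaches the phytol tail that completes chlorophyll. Green seeds (genotype label Atchlsyn1-1/CHLSYN, 3 libraries) are photosynthetically competent per the design text, and yellow non-green seeds (genotype label Atchlsyn1-1, 3 libraries) are not, although the word photosynthetic also stands in their sample titles. Both groups thus carry the mutant allele by label; days of 16 h light (120 µE) and 8 h dark at 22 °C were common to all plants. The labels give neither seed age, the kind of mutation nor the number of plants per library. They also do not tie the replicates to different plants, and all p-values therefore reflect the variation among these 6 libraries, which may be technical.

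Total counts ran from 16438639 to 16745514 per library. The chlorophyll synthase gene (CHLG, AT3G51820) had 46, 50 and 65 counts in green seeds against 11, 6 and 9 in non-green seeds (log2 fold change -2.69 ± 0.36, SE; edgeR adjusted p = 1.32e-09), in the direction of the labels. Of 8 embryo markers none was at 0 throughout, 3 were higher and 2 lower in non-green seeds (FAE1 0.59 ± 0.04, FUS3 0.29 ± 0.05, CRU3 -0.23 ± 0.02). Their sum was 286643 to 298120 CPM (counts per 1e6 after TMM scaling) in green seeds against 256058 to 266611 CPM in non-green seeds. Most of this sum came from the lower pair, with means of 173406 and 147905 CPM for CRU3 and 91029 and 84167 CPM for CRU1 in green and non-green seeds. All other embryo markers had log2 fold changes above 0, from 0.04 (ABI3, not passing) to 0.59 (FAE1). Seed coat markers were called lower in non-green seeds for 6 of 11 tested genes and called higher for 0. The summed level of all 13 listed was 1109 to 1168 CPM in green seeds against 812 to 831 CPM in non-green seeds, with none at 0 throughout. GL2 had a log2 fold change of -0.89 ± 0.05, TT10 of -0.44 ± 0.04 and SBT1.7 of -0.33 ± 0.04 (SE; edgeR adjusted p of 5.46e-26, 6.37e-19 and 1.66e-10). TT2 alone of the tested seed coat markers had a log2 fold change above 0. It was at 0.94 ± 0.49 (SE) on 4 to 22 counts per library and did not pass (edgeR adjusted p = 0.159). Endosperm markers were lower for 2 of 4 tested genes, MEA (-1.26 ± 0.23) and ALE1 (-1.92 ± 0.49), with PHE1 at 0 in every library, and without EPR1 the other 6 summed to 7.03 to 9.96 CPM in green seeds against 4.09 to 4.55 CPM in non-green seeds; with EPR1, at a log2 fold change of 0.06 ± 0.03 (0.14 and passing with total-count scaling), the list summed to 12615 to 14577 and 13382 to 14873 CPM. Silique wall markers summed to 74.5 to 81.6 CPM in green seeds against 78.5 to 95.8 CPM in non-green seeds, with FUL at 0. FIL (0.22 ± 0.07) and YAB3 (0.22 ± 0.08) were called higher, but each lost its call with some single libraries left out and YAB3 with DESeq2, while SHP1, at -0.30 ± 0.12, did not pass. For comparison with these marker counts, 14.2% of all tested genes were called higher in non-green seeds and 12.5% lower. The part of these tissues in the results below was not tested. In whole seeds, fewer cells of a type and less RNA per cell cannot be told apart.

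The small subunit has 4 gene copies, RBCS1A on chromosome 1 and the tandem group RBCS1B, RBCS2B and RBCS3B on chromosome 5. Because counts of similar copies can be exchanged, the coding part of their first exon is shown, from the RefSeq genome TAIR10.1 in the direction of the gene. All 4 genes lie on the minus strand. The transcribed regions span chr1:25048158-25049667, chr5:15383167-15385320, chr5:15380907-15382071 and chr5:15376988-15378642. Capitals mark bases that differ from RBCS1A.
RBCS1A: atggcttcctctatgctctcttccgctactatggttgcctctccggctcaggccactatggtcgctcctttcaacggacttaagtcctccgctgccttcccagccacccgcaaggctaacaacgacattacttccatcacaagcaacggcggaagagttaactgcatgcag
RBCS1B: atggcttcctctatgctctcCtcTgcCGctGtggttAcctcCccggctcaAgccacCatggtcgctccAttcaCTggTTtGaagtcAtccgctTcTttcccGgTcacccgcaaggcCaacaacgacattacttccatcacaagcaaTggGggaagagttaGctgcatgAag
RBCS2B: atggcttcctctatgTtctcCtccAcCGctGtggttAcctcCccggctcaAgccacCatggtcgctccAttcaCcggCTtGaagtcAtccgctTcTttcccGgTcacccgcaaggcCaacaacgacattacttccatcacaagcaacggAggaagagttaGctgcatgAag
RBCS3B: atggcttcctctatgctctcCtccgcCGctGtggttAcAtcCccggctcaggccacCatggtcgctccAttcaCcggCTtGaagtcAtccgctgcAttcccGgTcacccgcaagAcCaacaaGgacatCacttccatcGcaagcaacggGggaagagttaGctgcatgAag

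These stretches lie at chr1:25049079-25049249, chr5:15384985-15385155, chr5:15381808-15381978 and chr5:15378136-15378306, and each holds 171 bases. Over them RBCS1B and RBCS3B differ from RBCS1A at 25 positions and RBCS2B at 24, whereas RBCS1B and RBCS2B differ from each other at 7. Over the whole coding sequence RBCS1A was 89.9% to 90.1% identical to the chromosome 5 copies, which were 96.7% to 97.3% identical among themselves. Of all stretches of 50 bases in the annotated RBCS1A transcripts, 1.42% also occur in a transcript of another gene; for RBCS1B, RBCS2B and RBCS3B the share was 13.9%, 21.4% and 14.6%. Neither read length nor the handling of multiply matching reads is stated, and the counts of the chromosome 5 copies are therefore uncertain one by one.

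RBCS1A held nearly all small subunit counts in both kinds of seed, and it was slightly higher in non-green seeds. Its counts were 6221, 6299 and 6361 in the green and 7192, 7229 and 7320 in the non-green libraries. Scaled, these are 384, 395 and 389 CPM against 414, 422 and 436 CPM, so every non-green library lay above every green one. The means were 389 ± 5.24 and 424 ± 10.9 CPM (SD, n = 3 each), a log2 fold change of 0.12 ± 0.04 (SE; edgeR adjusted p = 0.00638). The call rests on non-green replicate 3, without which the log2 fold change was 0.10 (edgeR adjusted p = 0.0580).

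RBCS3B went the other way at a very low level. It had 20, 20 and 21 counts in green seeds against 13, 12 and 12 in non-green seeds, or 1.26 ± 0.0246 against 0.721 ± 0.0251 CPM (SD, n = 3 each). The groups did not overlap, but with so few counts the log2 fold change of -0.80 ± 0.42 (SE) did not pass edgeR's test (adjusted p = 0.162). RBCS1B was at 0, 0 and 2 counts in green seeds against 0, 3 and 4 in non-green seeds, and RBCS2B at 0 in every green library and at 2, 0 and 0 in the non-green ones. Neither had enough counts to be tested. A count of 0 allows up to 3 counts, which is 0.173 to 0.188 CPM depending on the library and covers counting error only.

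As shares of all small subunit counts, RBCS1A took 99.680%, 99.683% and 99.640% in green seeds against 99.792%, 99.793% and 99.782% in non-green seeds. RBCS3B took 0.320%, 0.317% and 0.329% in green seeds against 0.180%, 0.166% and 0.164% in non-green seeds. The mean share of RBCS3B was thus 0.322% ± 0.00636 and 0.170% ± 0.00916 (SD, n = 3 each), with an exact permutation p = 0.1, the smallest that 3 against 3 libraries allow, and an adjusted p = 0.2 over the 4 copies. The same p-values hold for RBCS1A, while RBCS1B (exact permutation p = 0.4) and RBCS2B (exact permutation p = 1) overlapped between groups. Summed over the 4 copies, which removes any exchange of reads among them, small subunit counts were 6241, 6319 and 6384 in green seeds against 7207, 7244 and 7336 in non-green seeds. Reads left out for matching several copies, if there were any, would be missing from this sum and from the shares. The sum had a log2 fold change of 0.12 ± 0.04 (SE; edgeR adjusted p = 0.00719), which without non-green replicate 3 was 0.10 (adjusted p = 0.0635). The plastid-encoded large subunit gene RBCL had 815, 739 and 768 counts in green seeds against 670, 850 and 975 in non-green seeds, a log2 fold change of 0.03 ± 0.07 (SE; edgeR adjusted p = 0.843), with groups that overlap. Without non-green replicate 3 it was -0.12.

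Rubisco activase (RCA, AT2G39730, chr2:16570746-16573692), which frees Rubisco's active sites of bound sugar phosphates, did not pass. Its counts were 299, 283 and 306 in green seeds against 341, 325 and 298 in non-green seeds, and the groups overlap at 18.3 ± 0.509 and 18.8 ± 0.963 CPM (SD, n = 3 each). The log2 fold change was 0.04 ± 0.09 (SE; edgeR adjusted p = 0.820).

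**Figure D1:**
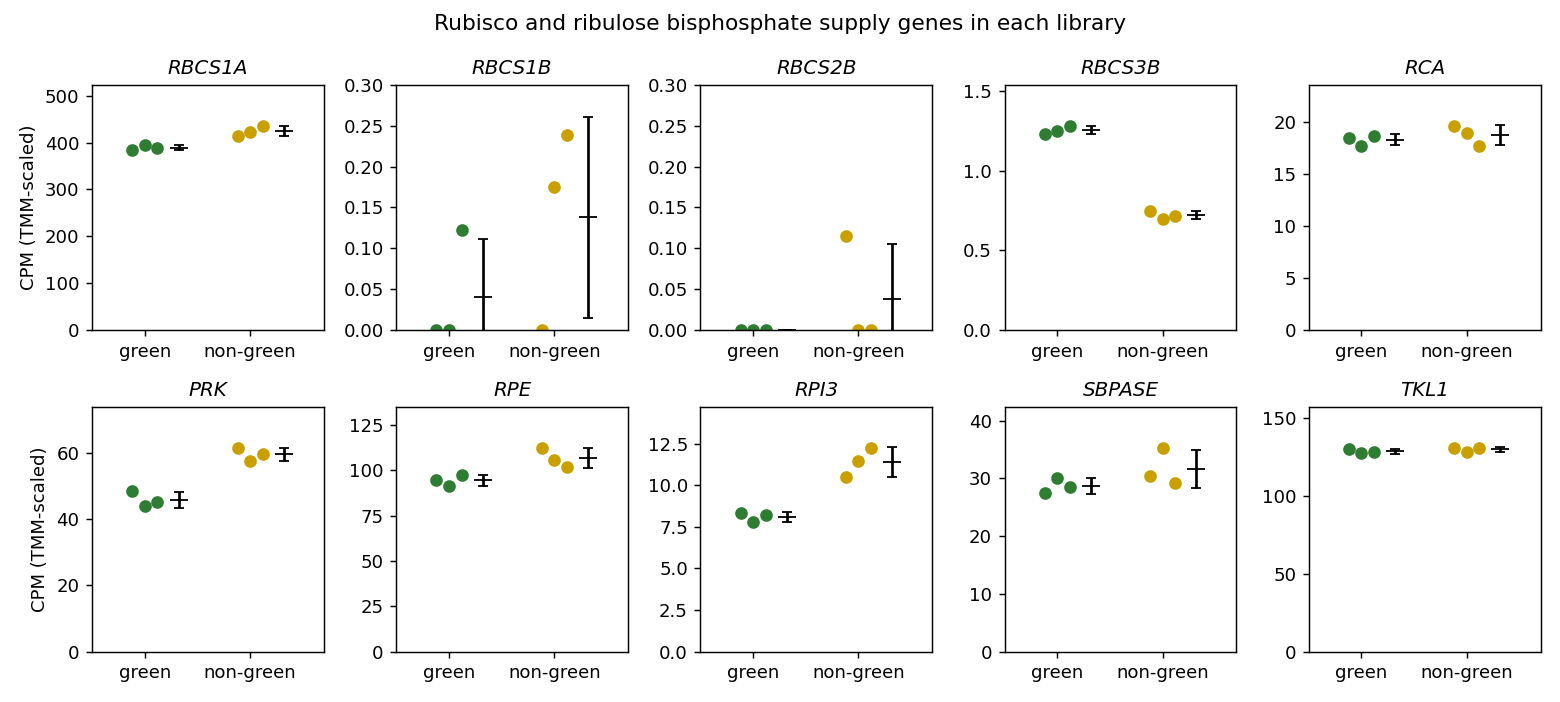
Level of each of the 10 genes in CPM (TMM-scaled, linear axis from 0) in the 3 green and 3 non-green libraries. Points are libraries and the bar beside them is the mean ± SD (cut at 0 where it would go below); PRK, RPI3, RPE and RBCS1A lie higher in every non-green library, RBCS3B lower, and RCA, SBPASE and TKL1 overlap.

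PRK (AT1G32060, chr1:11532199-11534639), the enzyme that makes ribulose bisphosphate, had the clearest difference of the set. It had 785, 702 and 736 counts in green seeds against 1068, 983 and 998 in non-green seeds. At 48.5, 44.0 and 45.0 CPM against 61.5, 57.4 and 59.4 CPM the groups lie well apart. The means of 45.8 ± 2.36 and 59.4 ± 2.09 CPM (SD, n = 3 each) give a log2 fold change of 0.38 ± 0.06 (SE; edgeR adjusted p = 1.97e-07), or 1.30-fold, and 13.9% of all tested genes had a larger log2 fold change.

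Ribose 5-phosphate isomerase and ribulose phosphate epimerase convert pentose phosphates into ribulose 5-phosphate, the substrate of PRK. The plastid isomerase gene RPI3 (AT3G04790, named EMB3119 in the table) had 135, 124 and 134 counts in green seeds against 182, 196 and 206 in non-green seeds. It rose from 8.10 ± 0.295 to 11.4 ± 0.891 CPM (SD, n = 3 each), 1.41-fold, with no overlap. Its log2 fold change of 0.49 ± 0.13 (SE; edgeR adjusted p = 0.00196) was the highest of the set, with an error larger than that of PRK. In TAIR10.1 the gene spans chr3:1313297-1314288 and 1 coding exon, and 235 of its 992 bases lie opposite the antisense gene AT3G01505. Use of strand in the counting is not given, so reads of the antisense gene cannot be told apart from its own. PRK and RCA overlap a gene on the other strand by 33 and 3 bases.

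The epimerase gene RPE (AT5G61410, chr5:24683606-24686217) had 1536, 1455 and 1589 counts in green seeds against 1952, 1807 and 1711 in non-green seeds. In CPM these are 94.9, 91.2 and 97.1 against 112, 105 and 102, so the groups do not overlap, though the highest green and the lowest non-green library are close. The log2 fold change was 0.18 ± 0.05 (SE; edgeR adjusted p = 0.00245), from 94.4 ± 3.02 to 107 ± 5.39 CPM (SD, n = 3 each). Without non-green replicate 1 it was 0.13 (edgeR adjusted p = 0.0528).

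TKL1 and SBPASE, whose enzymes act further upstream, did not pass. Transketolase moves carbon pairs between sugar phosphates, and its gene TKL1 (AT3G60750, chr3:22453668-22457458) had 2104, 2030 and 2090 counts in green seeds against 2270, 2190 and 2189 in non-green seeds, which after scaling are 128 ± 1.45 and 130 ± 1.63 CPM (SD, n = 3 each). With a log2 fold change of 0.02 ± 0.04 (SE; edgeR adjusted p = 0.843) the scaled groups overlap. Sedoheptulose bisphosphatase acts in the Calvin cycle and not in the pentose phosphate pathway. Its gene SBPASE (AT3G55800, chr3:20709294-20711640) had 445, 481 and 466 counts in green seeds against 527, 606 and 490 in non-green seeds, or 28.7 ± 1.34 and 31.6 ± 3.28 CPM (SD, n = 3 each). The log2 fold change was 0.14 ± 0.08 (SE; edgeR adjusted p = 0.190), with overlapping groups; scaled by total counts alone, it was 0.22 and passed (edgeR adjusted p = 0.0330), and with non-green replicate 2 left out it was 0.05 (edgeR adjusted p = 0.736).

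Counted together, 2 of the 10 genes were too low to test, and of the 8 others 4 were called higher (PRK, RPI3, RPE, RBCS1A), 0 lower and 4 did not pass. Among all 17239 genes tested, 26.6% were called, 14.2% higher and 12.5% lower. Scaling by total counts alone turned the whole-table split from 2444 higher and 2149 lower into 3266 and 1364, shifted the median log2 fold change of all tested genes from 0.00092 to 0.08, and called 5 of the 8 higher. Under that scaling RBCS1A was at 0.20, RCA at 0.11 and TKL1 at 0.09, the last pair still without passing. Groups did not overlap for 5 of the 8 (the 4 called and RBCS3B), against 37.3% of all genes tested. The median log2 fold change of the 8 was 0.13, and all 4 called differences were under 1.5-fold. In the authors' deposited table the same 4 genes pass, with log2 fold changes of 0.36 for PRK, 0.45 for RPI3, 0.17 for RPE and 0.12 for RBCS1A.

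**Figure D2:**
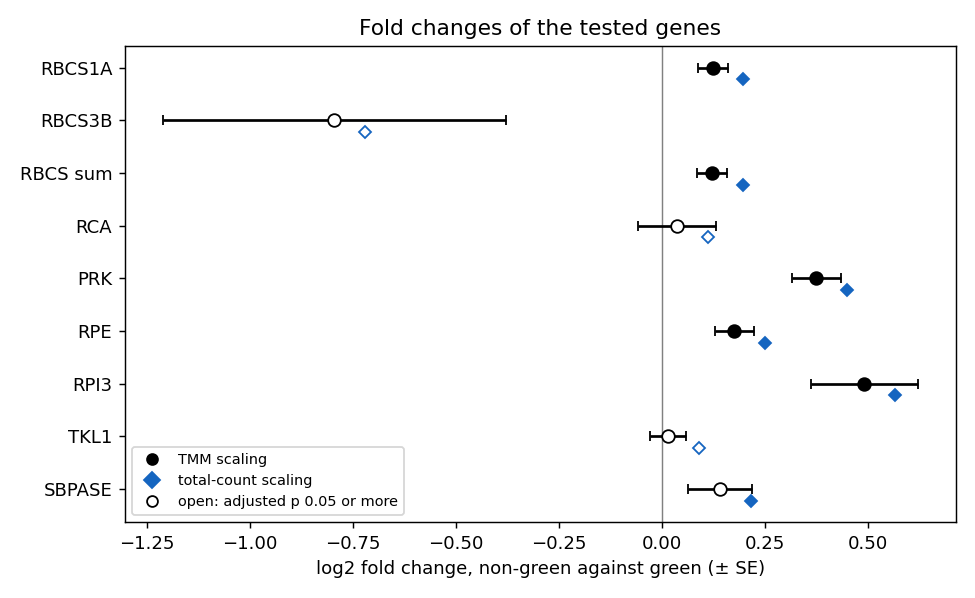
Log2 fold change, non-green against green, of the 8 tested genes and of the RBCS sum. Black circles with SE bars are from TMM scaling and blue diamonds from total-count scaling; filled symbols have an adjusted p under 0.05. PRK (0.38) and RPI3 (0.49) lie farthest right, and SBPASE is filled under total-count scaling alone.

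To see whether steps moved unequally, count ratios were taken within each library, which makes them independent of scaling. The log2 ratio of PRK to the RBCS sum was -2.99, -3.17 and -3.12 in green seeds against -2.75, -2.88 and -2.88 in non-green seeds. It was higher in each non-green library, by 0.25 on average (exact permutation p = 0.1, the smallest possible; adjusted p = 0.2 over 4 ratios). PRK to RPE was likewise higher, at -0.84 ± 0.0558 against -1.04 ± 0.0713 (SD, n = 3 each; exact permutation p = 0.1, adjusted p = 0.2). RCA to the RBCS sum (-4.50 ± 0.112 against -4.42 ± 0.0564; exact permutation p = 0.3, adjusted p = 0.4, n = 3 each) and SBPASE to the RBCS sum (-3.75 ± 0.163 against -3.77 ± 0.0478; exact permutation p = 0.8, n = 3 each) overlapped between groups. With 3 libraries a side none of these ratios could reach a p under 0.1.

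**Figure D3:**
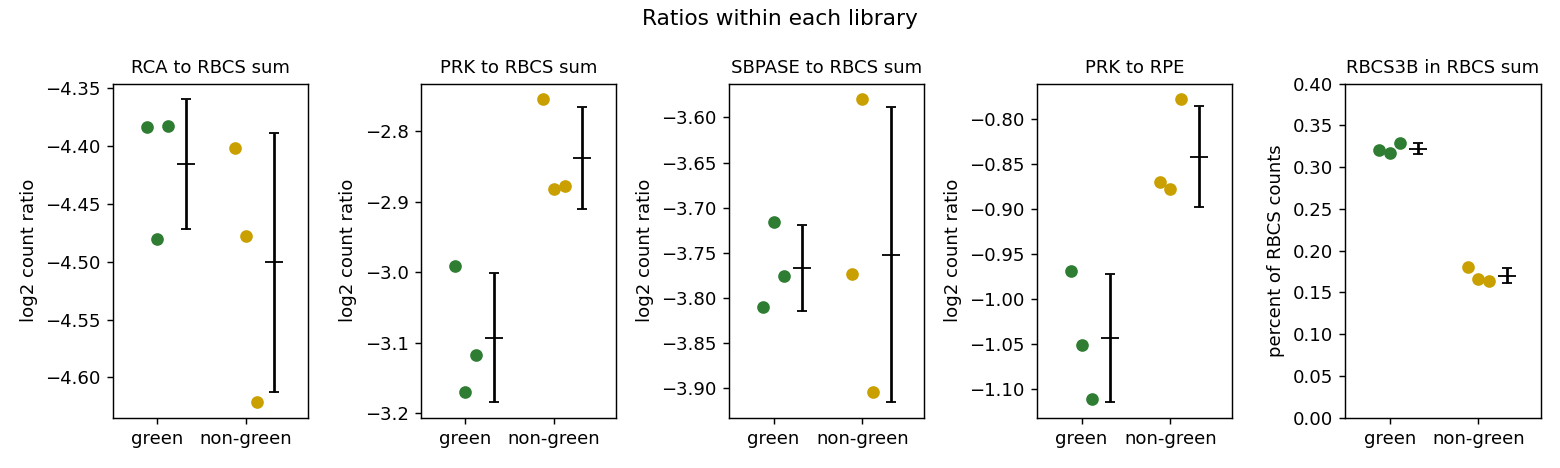
Log2 count ratios within each library (4 panels, axes not from 0) and the share of RBCS3B in all RBCS counts (percent, last panel). Points are libraries, with mean ± SD beside them; PRK to RBCS sum, PRK to RPE and the RBCS3B share separate the groups, and the other ratios overlap.

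Per length as deposited, the order of the genes was the same in both kinds of seed. The authors' deposited RPKM (reads per kilobase of gene model and 1e6 counted reads) put RBCS1A far above the rest, at 369.7 ± 1.21 in green seeds against 424 ± 5.28 in non-green seeds (SD, n = 3 each). RPE followed at 65.3 ± 2.89 and 77.7 ± 4.87 RPKM, then TKL1 at 44.0 ± 1.09 and 46.8 ± 0.794, PRK at 28.7 ± 1.84 and 39.2 ± 1.60, SBPASE at 16.9 ± 0.544 and 19.6 ± 2.16, and RCA at 9.24 ± 0.378 and 9.997 ± 0.643. RPI3 (4.09 ± 0.208 and 6.06 ± 0.398 RPKM) and RBCS3B (1.23 ± 0.0283 and 0.741 ± 0.0315 RPKM) came last among the genes with steady counts. Down to RBCS3B the libraries of neighbouring genes in this order did not overlap within either group, while RBCS1B and RBCS2B overlapped. The deposited RPKM of RPI3 implies a length of 1928 bases, but its longest TAIR10.1 transcript has 992. At that length its level would be 7.95 and 11.8 RPKM in green and non-green seeds. RPI3 would then lie below RCA in green seeds and above RCA in non-green seeds, so the order of this pair depends on the gene model. All 10 genes held 0.0695% ± 0.00101 of counts in green seeds against 0.0802% ± 0.000667 in non-green seeds (SD, n = 3 each; exact permutation p = 0.1, the smallest possible). RBCS1A alone made up 54.5% and 54.2% of that.

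Neighbouring steps of the pathway were read from lists of related genes. Chaperonins and assembly factors fold and assemble Rubisco, among other proteins. Of 16 listed, 14 were tested, 3 were higher and 0 lower, with a median log2 fold change of 0.17, where 14.2% of all tested genes were higher and 26.6% called. The 3 were chaperonin 60 genes: CPN60B2 rose from 14.8 ± 1.74 to 25.7 ± 0.946 CPM (SD, n = 3 each; log2 fold change 0.80 ± 0.09), CPN60A1 by 0.42 ± 0.06 and CPN60B3 by 0.31 ± 0.09 (SE; edgeR adjusted p of 2.68e-11, 2.91e-09 and 0.00463). Leaving out green replicate 2 ended the call of CPN60B3 (0.24, edgeR adjusted p = 0.0669). The Rubisco assembly genes RBCX2, RAF2 and BSD2 had log2 fold changes of 0.10, 0.12 and 0.22 and did not pass (edgeR adjusted p of 0.549, 0.703 and 0.671).

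The other Calvin cycle genes went both ways, with 6 of 12 tested higher, 3 lower and a median log2 fold change of 0.21. Among all tested genes, 14.2% were higher and 12.5% lower. The plastid aldolase gene FBA3 rose from 130 ± 6.87 to 232 ± 6.42 CPM (SD, n = 3 each; log2 fold change 0.83 ± 0.04), and GAPB, a subunit of plastid glyceraldehyde phosphate dehydrogenase, and FBA2 each by 0.42 (SE 0.05 and 0.07; edgeR adjusted p of 3.41e-30, 1.87e-11 and 4.33e-07 in this order). The other subunit genes of that dehydrogenase were lower, GAPA at -0.19 ± 0.06 and GAPA2 at -0.34 ± 0.09 (SE; edgeR adjusted p of 0.00837 and 0.00140). The last of the 3 lower genes was CP12-1, whose protein binds PRK and glyceraldehyde phosphate dehydrogenase into an inactive complex. Its log2 fold change was -0.32 ± 0.06 (SE; edgeR adjusted p = 3.24e-06), from 75.9 ± 7.89 to 60.9 ± 2.22 CPM (SD, n = 3 each), opposite in sign to that of PRK.

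Other pentose phosphate genes, which hold the oxidative entry and the isoforms of the enzymes above, were higher for 7 of 16 and lower for 1, with a median of 0.11. Beside this, 14.2% of all tested genes were higher and 12.5% lower. The 6-phosphogluconate dehydrogenase gene PGD3 rose by 0.67 ± 0.08 and the glucose 6-phosphate dehydrogenase genes G6PD4 and G6PD2 by 0.55 ± 0.09 and 0.47 ± 0.08 (SE, n = 3 per group; edgeR adjusted p of 4.99e-12, 1.54e-07 and 1.09e-06). The transaldolase gene TRA1 was the lower one, at -0.14 ± 0.05 (edgeR adjusted p = 0.0349); the adjusted p was 0.240 with green replicate 1 left out, 0.109 and 0.0984 with non-green replicate 2 and 3 left out, and 0.423 with total-count scaling. The other transaldolase gene, TRA2, was higher, at 0.21 ± 0.04 (SE; edgeR adjusted p = 2.78e-05). Transketolase and isomerase isoforms differed in their values. TKL2 lay above TKL1 per length, at 100.4 ± 2.23 RPKM in green seeds against 123 ± 5.11 RPKM in non-green seeds (SD, n = 3 each), and passed at 0.22 ± 0.04 (log2; edgeR adjusted p = 3.36e-06), while the isomerase genes RPI1, RPI2 and RPI4 had log2 fold changes of -0.13, -0.19 and -0.22 and did not pass (edgeR adjusted p of 0.673, 0.621 and 0.468). The differences between isoforms were not tested.

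The genes that carry 3-phosphoglycerate on to acetyl-CoA in the plastid were all higher, 11 of 11 tested, with a median of 0.48. Over the whole table, 14.2% of tested genes were higher and 12.5% lower. The plastid enolase gene ENO1 rose from 36.2 ± 2.27 to 74.2 ± 1.69 CPM (SD, n = 3 each; 1.03 ± 0.06), the plastid pyruvate kinase gene PKPB1 by 0.65 ± 0.04 and the pyruvate dehydrogenase E1 beta gene PDH-E1B1 by 0.64 ± 0.04 (SE; edgeR adjusted p of 8.75e-27, 4.61e-26 and 1.08e-22). The lowest of the 11 was LTA2, for the E2 subunit of pyruvate dehydrogenase, at 0.29 ± 0.06, above RBCS1A and RPE and below PRK and RPI3. Pyruvate dehydrogenase is the enzyme that releases the CO2 in the bypass. Among 6 beta carbonic anhydrase genes, whose enzymes interconvert CO2 and bicarbonate, BCA1 and BCA2 had 0 counts in every library and 3 were tested. BCA5 was higher at 0.22 ± 0.08 (edgeR adjusted p = 0.0363), but the adjusted p was 0.124 and 0.137 with green replicate 2 and 3 left out, 0.121 and 0.125 with non-green replicate 1 and 3 left out, and 0.0670 with DESeq2. BCA6 (0.21 ± 0.17) and BCA4 (-0.12 ± 0.48) did not pass.

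**Figure D4:**
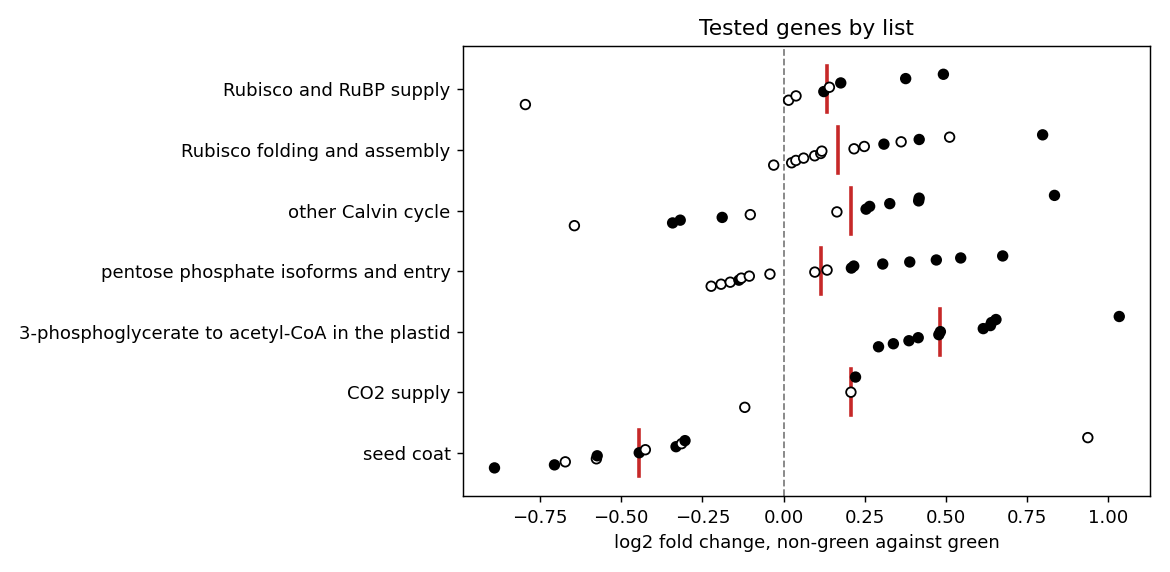
Log2 fold change, non-green against green, of each tested gene in the lists (1 point per gene; filled where the adjusted p is under 0.05). Red bars are list medians and the dashed line is the median of all tested genes; the list from 3-phosphoglycerate to acetyl-CoA is filled throughout with a median of 0.48, against 0.13 for the Rubisco and ribulose bisphosphate genes, and seed coat markers lie mostly to the left.

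Upstream of the start codon, the genes were searched on both strands, over 500 bases, for sequence elements known from light-regulated and seed genes. The window was counted back from the start codon, so it takes in transcribed bases where the annotated transcript starts before that codon. The G-box (CACGTG) was found in 6 of 10 (RBCS1A, RBCS2B, RBCS3B, RCA, RPE and SBPASE) and in 9.30% of 27443 protein-coding genes, and the I-box (GATAAG) in 8 of 10 (all but SBPASE and TKL1) and in 23.5% of all. These counts include related RBCS copies, whose matches are not independent. The G-boxes of the tandem copies RBCS2B and RBCS3B lie in similar stretches, 216 and 217 bases before the start codon. The RY repeat (CATGCA) of seed maturation genes was found upstream of RBCS1B alone, against 14.3% of all genes. The AW-box (searched as CNTNG and CG with a fixed gap of any bases), the element bound by the seed oil regulator WRINKLED1, was found upstream of RBCS1A, RPE, RPI3 and TKL1, against 20.5% of all genes. Sites of different elements did not overlap, while neighbouring I-boxes of PRK and of RBCS1B share a base. Printed are sites of RBCS1A and RBCS3B, which share the pair of G-box and I-box at very unequal levels, of PRK, which has I-boxes alone, and of RPE and RPI3 as examples of the AW-box, which TKL1 (not called) also has and PRK (called higher) lacks. Capitals mark only the site named on each line, the strand is that of the gene, and a match is not a bound site. The RBCS3B G-box stretch and the PRK I-box stretch each hold a further I-box (cttatc, read on the other strand) in lower case.
RBCS1A G-box: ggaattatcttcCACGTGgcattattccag
RBCS3B G-box: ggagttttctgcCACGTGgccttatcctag
RBCS1A I-box: gcggttcaagccGATAAGggtctcaacacc
RBCS3B I-box: gtggtgcgtaccGATAAGggtgtcaacacc
PRK I-box: tataaatgttttCTTATCctcttatcttat
RPE AW-box: agccgctgCATTGGATCATCCGaacaagga
RPI3 AW-box: aaaaccatCGAAACCAACAAAGtttcgtta

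In order, these lie at chr1:25049491-25049520, chr5:15378506-15378535, chr1:25049462-25049491, chr5:15378477-15378506, chr1:11532248-11532277, chr5:24686053-24686082 and chr3:1312939-1312968 in TAIR10.1. All of these stretches but that of RPI3 lie inside the annotated transcribed region of their gene. The G-box of RBCS1A begins 259 bases and that of RBCS3B 217 bases before the start codon, and the I-boxes shown begin 230 and 188 bases before it. The element pair is thus present both in the copy with nearly all counts and in a copy near 0.

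Genes whose level followed these genes most closely over the 6 libraries were found by Pearson's r of log2 CPM among 8831 genes with at least 10 CPM. For the RBCS sum they were AT1G03210 (phenazine biosynthesis family, r = 0.997), AT3G17130 (invertase and pectin methylesterase inhibitor family, r = 0.997) and SDH2-3 (succinate dehydrogenase, r = 0.996). For PRK they were AT5G24600 (unknown function, r = 0.998), CLPC1 (plastid chaperone, r = 0.997) and CYP71B10 (cytochrome P450, r = 0.997). In these 6 libraries of 2 groups, 248 genes reached an r over 0.95 with the RBCS sum and 433 with PRK, and all 6 genes named were themselves called higher.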

How the data were processed

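For 6 libraries the deposited table gives counts, not normalized, per gene model and the authors' RPKM, the same counts per length and library total; RPKM served for levels between genes. Bowtie 0.12.2 and build TAIR10 stand in the submitters' processing notes. The counting program, strand use and multi-match handling are not stated. The authors' deposited table also holds their mean signal per gene, log2 fold changes, a score (the test statistic) and p-values, with no settings stated.

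Counts were analysed with edgeR 4.0.16 in R 4.3.3: filterByExpr left 17239 genes, libraries were scaled by TMM, and the groups were compared by the quasi-likelihood test, with p-values adjusted over all genes (Benjamini-Hochberg, called under 0.05). SE is the fold change over the square root of F. The common biological coefficient of variation was 5.68%. Shares and ratios had two-sided exact permutation tests in SciPy 1.17.1. Alternatives were DESeq2 1.42.0, other scalings, no filter, a replicate block and leaving out each library. Sequences came from RefSeq TAIR10.1; deposited tables hold no coordinates. The steps were tested on simulated data.

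The members and lists were chosen with earlier results of these data known. Named were all 10 genes, RBCL, CHLG, from each list the 3 smallest adjusted p and the first call in the minority direction, and the 3 genes most like the RBCS sum and PRK. TKL2, LTA2, BCA1, BCA2, TRA2, GAPA, GAPA2, RBCX2, RAF2, BSD2, RPI1, RPI2, RPI4 and TT2 were named after their values were seen and were not recomputed singly under the alternatives.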

Additional observations from a re-analysis of the deposited data

How the results depend on the processing

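PRK and RPI3 stayed called under every alternative tried (log2 fold changes of 0.35 to 0.45 and 0.43 to 0.57), and all 11 genes from 3-phosphoglycerate to acetyl-CoA stayed higher without each single library. The number of the 10 genes called higher was 3 without non-green replicate 1 or 3 and 5 with total-count scaling. The RBCS sum ranged from 0.10 to 0.14 when single libraries were left out, losing its call without non-green replicate 3. In the same way RBCL ranged from -0.12 to 0.17 and BCA4 from -0.75 to 0.15, the number of lower pentose phosphate genes from 0 to 1 and of higher carbonic anhydrase genes from 0 to 1. With total-count scaling, 0 pentose phosphate genes and 1364 genes of the table were lower; with DESeq2, 0 carbonic anhydrase genes were higher. With the embryo markers out of the total, the 10 genes held 0.0970% of counts in green seeds and 0.109% in non-green seeds. Of the full total they held 0.0695% and 0.0802%. The shares thus differed by 0.0124 percentage points in place of 0.0107. Both shares are larger on the smaller total, so this wider gap is not a larger relative difference. The causes were not tested. Deviations of same-numbered libraries had correlations of -0.03 to 0.01, and those of differently numbered ones -0.02 to 0.03. No pairing by number was thus seen, though values near 0 cannot exclude one. The replicate block gave 0.12 for the RBCS sum (edgeR adjusted p = 0.00604), 4 of the 10 genes higher, and 2469 higher and 2174 lower in the table. Among the genes recomputed one by one (those named by the rule), only SHP1 changed its call with the block (-0.31, adjusted p = 0.0428). FIL did not pass without non-green replicate 1 or 3 (adjusted p of 0.0622 and 0.226), and YAB3 had an adjusted p of 0.286 without green replicate 1, and of 0.0834 and 0.118 without non-green replicate 2 and 3, and of 0.0698 with DESeq2. Leaving out replicate 2 of the green or of the non-green libraries, EPR1 passed (0.11 and 0.10), as it did with total-count scaling (0.14, adjusted p = 7.77e-07). SHP1 passed once green replicate 1 (-0.39) was left out, and also once non-green replicate 3 (-0.49) was. The few counts of RBCS1B, RBCS2B and RBCS3B limit what can be said of them.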
